A study of Homo sapiens with 15 samples.

Results

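VEGFA, TGFA, CCND1 and MYC are genes that HIF2α is known to drive in clear cell renal cell carcinoma, and the peaks of HIF2α and BMAL1 around them were taken from CUT&RUN data of 786-O cells. A peak was assigned to a gene when its summit lay within 300 kb of any start site of a protein-coding transcript of that gene. These are 4 of 19821 protein-coding genes, and 27 peaks in 4 lists met the rule. There were 16 of 1204 peaks in the shControl HIF2α list, 8 of 1089 in the shBMAL1 HIF2α list, 3 of 1812 in the shControl BMAL1 list and 0 of 768 in the shBMAL1 BMAL1 list.

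CUT&RUN releases and sequences the DNA that lies next to an antibody bound to chromatin. 786-O is a clear cell renal carcinoma line that lacks functional VHL and makes HIF2α but no functional HIF1α, so HIF2α is present in it without hypoxia. The 15 libraries form 6 groups. Cells carrying a scrambled lentiviral shRNA (shControl) gave 2 IgG, 3 BMAL1 and 3 HIF2α libraries, and cells carrying an shRNA against BMAL1 (shBMAL1) gave 2 IgG, 2 BMAL1 and 3 HIF2α libraries. All cells of both arms were selected with puromycin and are of this 1 line. The study asked how BMAL1 shares chromatin sites with HIF2α and what its depletion does to them.

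HIF2α, the product of EPAS1, pairs with ARNT through basic helix-loop-helix and PAS domains and binds the hypoxia response element, whose core is ACGTG or GCGTG. BMAL1 is a factor of the same family, the partner of CLOCK in the circadian clock, and binds the E-box CACGTG. VEGFA encodes the secreted ligand that drives blood vessel growth, and TGFA encodes a ligand of the EGF receptor. CCND1 encodes cyclin D1, which activates CDK4 and CDK6 at the start of the cell cycle, and MYC encodes a transcription factor that drives growth and division.

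Sequences under 5 of the HIF2α peaks are shown so that the letters by which HIF2α is known to find DNA can be seen where they are present. Each is the plus strand of hg19 read 5′ to 3′, and capitals mark a core of the hypoxia response element on either strand (ACGTG or GCGTG, read as CACGT or CACGC from the other strand). The first is 45 bp around the core farthest upstream in the VEGFA promoter peak, and the others are 200 bp centred on a summit. The VEGFA promoter and the TGFA intron were picked after their values were seen, and the others are the peak of smallest p at their gene.
VEGFA promoter, upstream core, chr6:43736952-43736996: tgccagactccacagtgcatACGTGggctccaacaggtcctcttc
VEGFA promoter summit, chr6:43737444-43737643: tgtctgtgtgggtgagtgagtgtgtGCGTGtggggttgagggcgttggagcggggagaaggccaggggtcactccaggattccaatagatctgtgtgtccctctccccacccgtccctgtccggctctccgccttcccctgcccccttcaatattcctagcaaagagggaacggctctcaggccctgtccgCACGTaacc
VEGFA distal peak within SCIRT, chr6:43978755-43978954: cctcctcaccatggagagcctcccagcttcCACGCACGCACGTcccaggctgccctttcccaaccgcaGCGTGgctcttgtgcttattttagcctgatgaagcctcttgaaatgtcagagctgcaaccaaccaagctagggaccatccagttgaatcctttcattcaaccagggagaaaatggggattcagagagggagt
TGFA distal peak, chr2:70823884-70824083: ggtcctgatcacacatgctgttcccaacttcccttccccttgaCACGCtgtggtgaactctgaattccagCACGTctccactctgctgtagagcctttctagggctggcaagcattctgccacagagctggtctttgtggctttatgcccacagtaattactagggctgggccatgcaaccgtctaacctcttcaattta
TGFA intron, under both factors, chr2:70751658-70751857: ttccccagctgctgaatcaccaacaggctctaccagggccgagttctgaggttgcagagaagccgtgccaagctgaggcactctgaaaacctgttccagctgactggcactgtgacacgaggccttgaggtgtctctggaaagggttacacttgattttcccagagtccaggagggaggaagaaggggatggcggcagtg
CCND1 distal peak, chr11:69234542-69234741: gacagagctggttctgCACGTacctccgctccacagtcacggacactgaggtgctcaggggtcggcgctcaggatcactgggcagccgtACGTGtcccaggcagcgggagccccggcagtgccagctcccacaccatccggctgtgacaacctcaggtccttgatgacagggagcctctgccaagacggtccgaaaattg
The distal VEGFA window held 4 cores, and the VEGFA promoter, TGFA distal and CCND1 distal windows held 2 each. The TGFA intron window, the only one of these that also lay under a BMAL1 peak, held none and no E-box.

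The 4 genes differed in how HIF2α peaks were placed around them. Only VEGFA had a peak at its own promoter. TGFA had a peak within its gene body, CCND1 had peaks only far upstream, and MYC had peaks only downstream, within the long noncoding RNA gene PVT1. All 4 genes had a shControl HIF2α peak within 300 kb, beside 29.5% of all protein-coding genes, and all 4 had a shBMAL1 HIF2α peak, beside 26.3%. TGFA and MYC had a shControl BMAL1 peak, beside 45.1% of all genes, and VEGFA and CCND1 had none. No gene of the 4 had a shBMAL1 BMAL1 peak, beside 26.3% of all genes. Each list was called by the authors on the pooled libraries of its group, so the values carry no replicate error and no test was run. The fold enrichment and p of a peak are relative to its own list, and a site without a peak may still hold signal under the calling threshold.

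**Figure D1:**
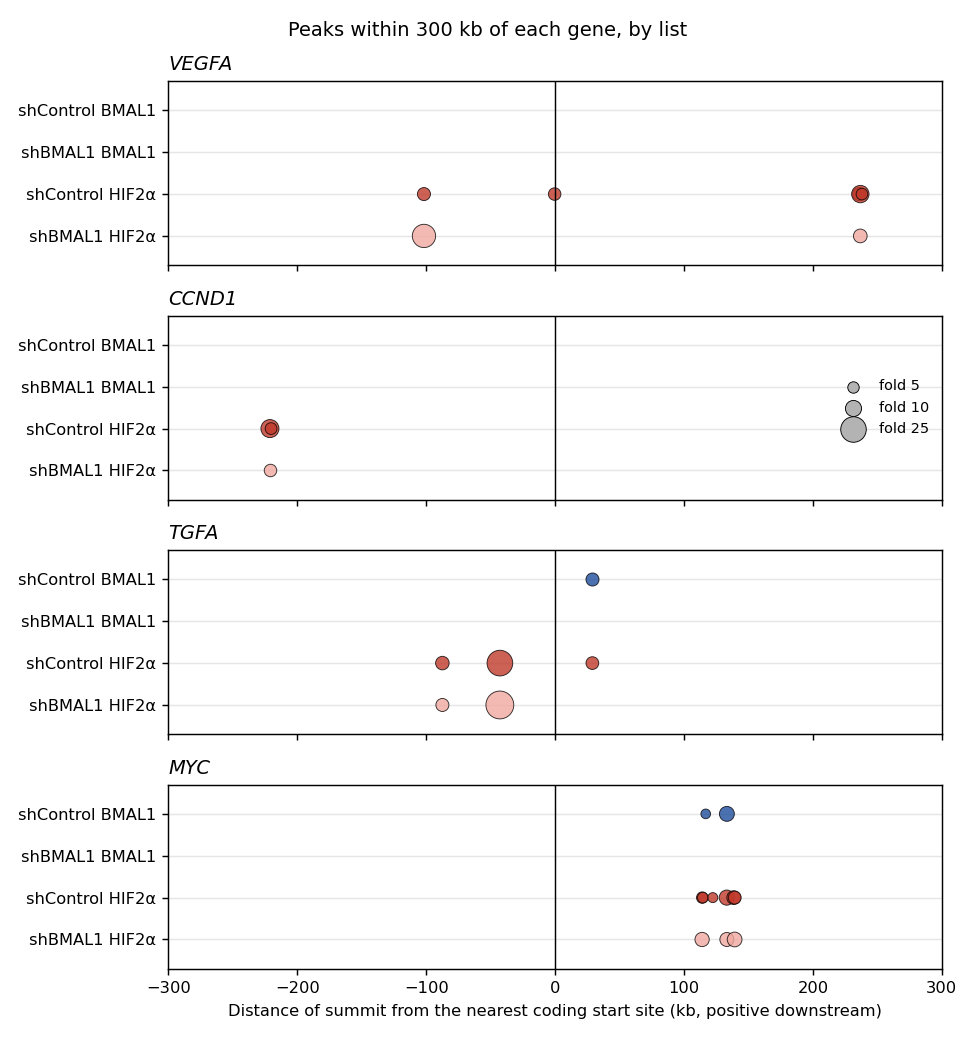
Each panel shows 1 gene and each row 1 peak list. The x axis is the distance of a peak's summit from the nearest protein-coding start site of the gene in kb (positive is downstream), and the area of a point is proportional to fold enrichment. HIF2α peaks lie near all 4 genes, BMAL1 peaks lie near TGFA and MYC in shControl cells only, and the row of shBMAL1 BMAL1 is empty in every panel.

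VEGFA (ENSG00000112715, chr6:43737921-43754224, plus strand) had 5 shControl HIF2α peaks. The promoter peak at chr6:43736921-43737696 spanned 776 bp, and its summit lay 404 bp upstream of the first protein-coding start. Its fold enrichment was 6.01 and it ranked 416 of 1204 by p, where rank 1 has the smallest p. By fold it ranked 797. It stood near the middle of its list, although it was the only one of the 16 HIF2α peaks at a promoter of any of the 4 genes. With the promoters of all annotated genes counted, 2 of the 16 lay in one, beside 26.9% of the whole list.

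The VEGFA promoter peak held 5 cores of the hypoxia response element. They began 976, 511, 479, 313 and 266 bp upstream of the first coding start, and the one at 976 bp lay near the upstream edge of the peak, away from its summit. CCAAT boxes lay 423 and 282 bp upstream. No HIF2α peak was called at this promoter in shBMAL1 cells and no BMAL1 peak in either arm.

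The other 4 VEGFA peaks of the shControl HIF2α list were distal. A peak 101.8 kb upstream, at chr6:43636063-43636228 in an intron of RSPH9, had a fold enrichment of 6.53 and ranked 357. Its nearest coding gene was MRPS18A at 19.4 kb, whose start lies between the peak and VEGFA, and its 200 bp window held none of the 5 motifs searched. The remaining 3 lay together downstream in an intron of the long noncoding RNA gene SCIRT. Their fold enrichments were 6.69 at 235.9 kb, 11.6 at 236.8 kb and 5.21 at 238.0 kb, and their ranks were 609, 95 and 964. TMEM63B was the nearest coding gene of all 3, between 114.6 and 116.7 kb away. The strongest of the 3, at chr6:43978701-43979048, was also the strongest of all 5 VEGFA peaks by p and by fold.

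In shBMAL1 cells VEGFA had 2 HIF2α peaks, both distal. The upstream one at chr6:43635826-43636295 had a fold enrichment of 20.8 and ranked 49 of 1089, against rank 357 of 1204 in the shControl list. The downstream one at chr6:43977894-43978969 spanned 1076 bp, overlapped the first 2 shControl peaks within SCIRT, and had a fold enrichment of 7.23 and rank 195. Of the 5 shControl peaks 3 overlapped a shBMAL1 peak, and the promoter peak and the weakest SCIRT peak did not.

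TGFA (ENSG00000163235, chr2:70674416-70781325, minus strand) carried the strongest HIF2α peak of the 4 genes. It lay 42.9 kb upstream at chr2:70823616-70824324, in intergenic DNA with TGFA as its nearest coding gene, and spanned 709 bp. In the shControl list its fold enrichment of 25.3 was the second highest, and its −log10 p of 106 gave rank 28 of 1204. In the shBMAL1 list the peak at chr2:70823620-70824307 had a fold enrichment of 29.8, the highest of all 1089 peaks, and ranked 15 by p. The summits of the 2 lists lay 36 bp apart, and both windows held 2 cores of the hypoxia response element.

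A further TGFA peak lay 87.5 kb upstream over an exon of ADD2, which encodes a cytoskeletal protein and was the nearest coding gene at 64.9 kb. It had a fold enrichment of 7.03 and rank 734 in shControl cells and 6.51 and rank 510 in shBMAL1 cells. The last peak lay in a TGFA intron, 28.9 kb downstream of the nearest coding start, at chr2:70751692-70751842. Its fold enrichment was 6.23 and its rank 990, and it was not called in shBMAL1 cells.

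The TGFA intron was 1 of 2 sites near the 4 genes called for both factors. The shControl BMAL1 peak at chr2:70751593-70751928 had a fold enrichment of 6.53 and ranked 1388 of 1812. Its summit was 69 bp from the HIF2α summit. Neither factor had a peak there in shBMAL1 cells, so of the 15 separate sites formed by merging overlapping peaks it was the only one called for both factors in shControl cells and for neither in shBMAL1 cells.

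CCND1 (ENSG00000110092, chr11:69455924-69469242, plus strand) had 2 shControl HIF2α peaks, close together in intergenic DNA. The stronger, at chr11:69234540-69234773, lay 221.3 kb upstream and had a fold enrichment of 12.5 and rank 145 of 1204. The weaker, at chr11:69235465-69235626, lay 220.4 kb upstream and had a fold enrichment of 5.31 and rank 1023. MYEOV was the nearest coding gene of both, 173.0 and 173.9 kb away on the far side from CCND1, and no other coding start lay between either peak and CCND1.

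The stronger CCND1 peak held 2 cores of the hypoxia response element, while the weaker held an AP-1 site and no core. Only the stronger was called in shBMAL1 cells, at chr11:69234523-69234728, with a fold enrichment of 6.00 and rank 460 of 1089. As a percent of its own list, its rank was 12.0% in the shControl list and 42.2% in the shBMAL1 list, while that of the upstream VEGFA peak was 29.7% and 4.50%. The lists were called separately and differ in length, so these ranks are set side by side only. No BMAL1 peak lay within 300 kb of CCND1 in either arm.

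MYC (ENSG00000136997, chr8:128747680-128755197, plus strand) had 6 shControl HIF2α peaks, the most of the 4 genes. All lay downstream within PVT1, between 114.1 and 139.3 kb from the nearest MYC start, and MYC was the nearest coding gene of each. The fold enrichments, in order of distance, were 4.96 at 114.1 kb, 4.37 at 114.6 kb, 3.82 at 122.3 kb, 8.79 at 133.1 kb, 7.25 at 138.5 kb and 6.41 at 139.3 kb. The ranks in the same order were 981, 722, 1151, 256, 443 and 382. The 3 peaks beyond 133 kb therefore ranked above the 3 nearer ones. No single MYC peak was as strong as the leading peaks of VEGFA, TGFA and CCND1.

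In shBMAL1 cells MYC had 3 HIF2α peaks. The nearest, at chr8:128863809-128864688, spanned 880 bp, overlapped the first 2 shControl peaks and had a fold enrichment of 7.81 and rank 298 of 1089. The peaks at 133.2 and 139.2 kb had fold enrichments of 7.53 and 8.36 and ranks 198 and 225. The shControl peaks at 122.3 and 138.5 kb had no shBMAL1 counterpart.

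Of 2 shControl BMAL1 peaks near MYC, 1 coincided with HIF2α. At chr8:128883099-128883312 BMAL1 had a fold enrichment of 8.59 and rank 717 of 1812, and its summit was 94 bp from the HIF2α summit at 133.1 kb. HIF2α kept a peak there in shBMAL1 cells while BMAL1 did not. The other BMAL1 peak, at chr8:128866795-128867003 over a PVT1 exon and within a PVT1 promoter, had no HIF2α peak and stood near the end of its list with a fold enrichment of 3.57 and rank 1804.

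**Figure D2:**
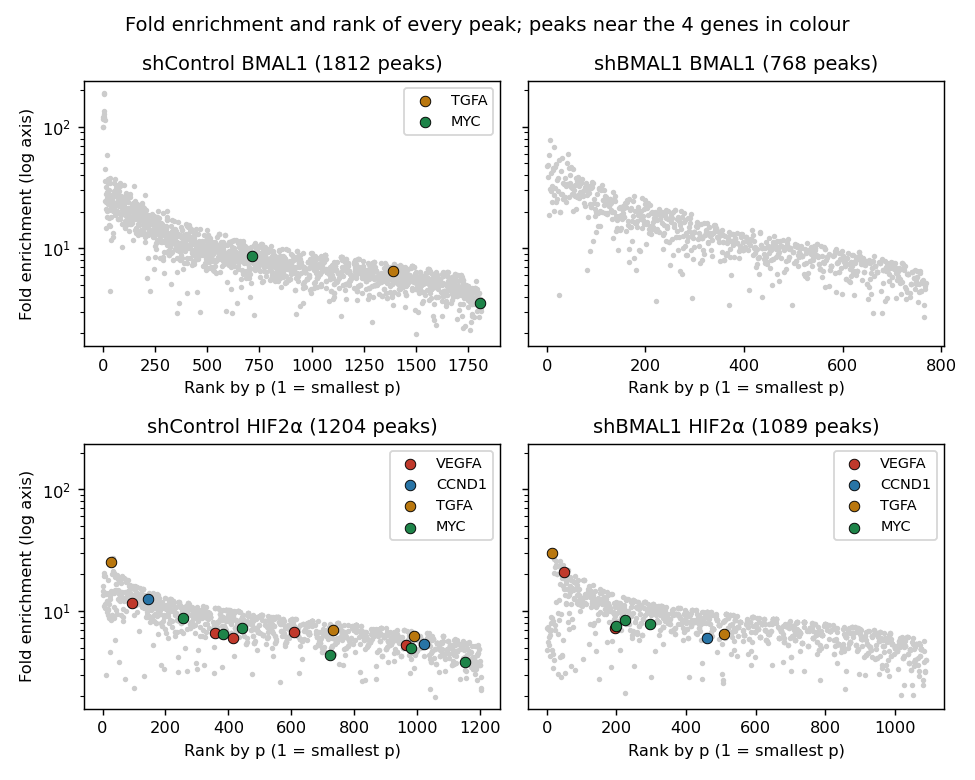
Each panel plots every peak of 1 list, with its rank by p on the x axis (1 is the smallest p) and fold enrichment on a log y axis. Grey points are all other peaks and coloured points are those near the 4 genes. The TGFA peak 42.9 kb upstream is near the top left of both HIF2α lists, and the remaining coloured points are spread over the lists.

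In shControl cells the HIF2α peaks near the 4 genes had medians close to those of their whole list, and the BMAL1 peaks ranked lower than the median of theirs. The median fold enrichment of the 16 HIF2α peaks was 6.47, beside 6.87 over all 1204, and their median rank was 526, beside 602.5. The 8 shBMAL1 HIF2α peaks had a median fold enrichment of 7.67, beside 7.40 over all 1089, and a median rank of 211.5, beside 541. They were also wider, with a median width of 353.5 bp beside 213 bp, while the 16 shControl peaks had the median width of their list, 217 bp. The 3 shControl BMAL1 peaks had a median fold enrichment of 6.53 beside 7.13 and a median rank of 1388 beside 906.

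VEGFA and MYC had more shControl HIF2α peaks than most genes. The median over all protein-coding genes was 0 peaks within 300 kb. As many as the 6 peaks of MYC were found near 55 genes or 0.277%, and as many as the 5 of VEGFA near 78 or 0.394%. The 3 of TGFA were reached by 3.71% and the 2 of CCND1 by 9.44%. In shBMAL1 cells the 3 peaks of MYC were reached by 2.69% of genes, the 2 of VEGFA and of TGFA by 7.67%, and the 1 of CCND1 by 26.3%. At VEGFA and at MYC, 2 of the shControl peaks overlapped 1 shBMAL1 peak, so part of each lower count is the joining of peaks. Neighbouring genes share peaks, so these shares describe places in the genome rather than separate genes.

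**Figure D3:**
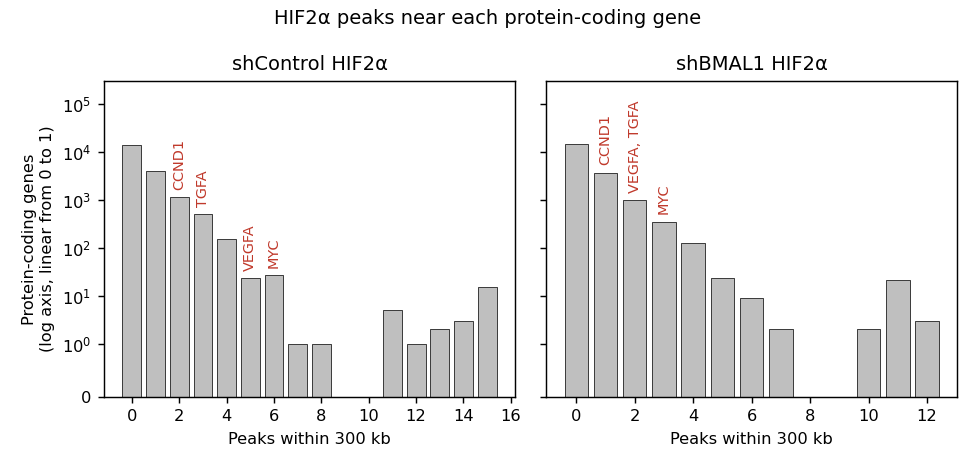
Bars give the number of protein-coding genes (log y axis, linear from 0 to 1) with each number of HIF2α peaks within 300 kb (x axis) in shControl and shBMAL1 cells. The 4 genes are written above their bars, with MYC at 6 and VEGFA at 5 in shControl cells, and at 3 and 2 in shBMAL1 cells. At MYC and at VEGFA, 2 of the shControl peaks overlap the same shBMAL1 peak.

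A peak near a gene need not have that gene as its nearest. Of the 16 shControl HIF2α peaks, 9 had 1 of the 4 genes as the nearest coding gene, namely 6 at MYC, 2 at TGFA, 1 at VEGFA and 0 at CCND1. Being nearest to at least 1 peak was a property of 4.89% of all coding genes in that list. In shBMAL1 cells 4 of the 8 peaks did, 3 at MYC and 1 at TGFA, and 4.35% of all genes were nearest to a peak. All 3 shControl BMAL1 peaks had TGFA or MYC as nearest, and 8.2% of all genes were nearest to a peak of that list. For the shBMAL1 BMAL1 list, with 0 peaks here, the share of all genes was 3.63%. These percentages are shares of genes, whereas the counts are of peaks taken for lying near the 4 genes. The measures are not alike and cannot be compared.

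After BMAL1 knockdown, HIF2α peaks near the 4 genes were called again in a share close to that of the whole list. Of the 16 shControl peaks 10 overlapped a shBMAL1 HIF2α peak by at least 1 bp, which is 62.5% (95% Wilson interval 38.6 to 81.5), beside 57.7% of the whole list. The interval covers counting error only and takes the peaks as independent. They are not, since 2 peaks of VEGFA and 2 of MYC overlapped the same shBMAL1 peak. All 8 shBMAL1 peaks overlapped a shControl peak, beside 63.9% of the whole list, so no site near these genes had a HIF2α peak in shBMAL1 cells alone. By gene, 3 of 5 were called again at VEGFA, 2 of 3 at TGFA, 1 of 2 at CCND1 and 4 of 6 at MYC.

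The peaks called again were mostly the strong ones. When the shControl list was divided by rank into 3 equal parts, all 6 peaks in the strongest part overlapped a shBMAL1 peak, beside 89.3% of all peaks in that part. In the middle part it was 3 of 5 beside 51.4%, and in the weakest 1 of 5 beside 32.6%. The 10 peaks called again had a median rank of 369.5 and the other 6 a median rank of 977. The VEGFA promoter, at rank 416, was the highest ranked of those 6.

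**Figure D4:**
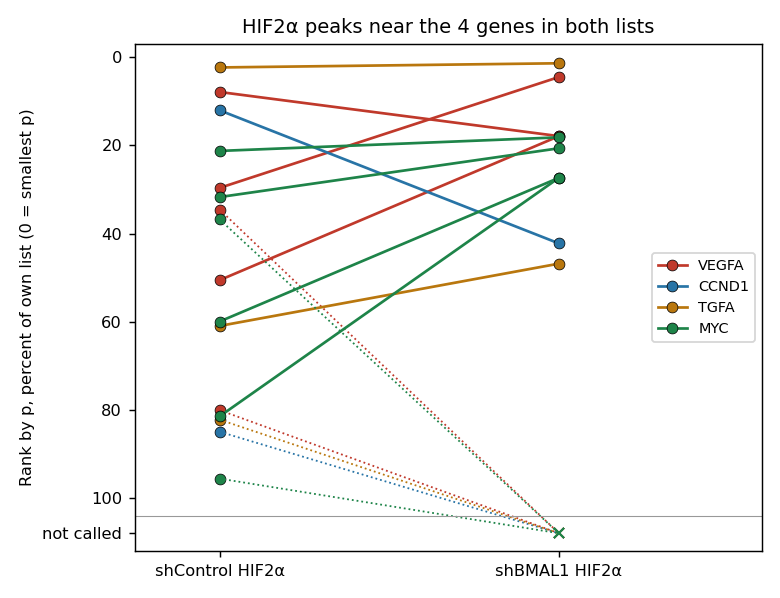
Each of the 16 shControl HIF2α peaks near the 4 genes (left) is joined to the overlapping shBMAL1 HIF2α peak (right), and the y axis is the rank by p as a percent of the peak's own list (0 is the smallest p). Dotted lines lead to peaks not called in shBMAL1 cells, which are 6 of 16, and 2 shControl peaks of VEGFA and 2 of MYC join the same shBMAL1 peak.

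BMAL1 was called at few of these sites. Of the 16 shControl HIF2α peaks 2 overlapped a shControl BMAL1 peak, in the TGFA intron and at 133.1 kb from MYC, which is 12.5% (95% Wilson interval 3.50 to 36.0) beside 27.9% of the whole list. Of the 3 shControl BMAL1 peaks, 0 overlapped a shBMAL1 BMAL1 peak, beside 38.7% of the whole list. The shBMAL1 BMAL1 list was called from 2 libraries and the other 3 lists from 3 each. Knockdown of BMAL1 itself cannot be read from peak lists.

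The core of the hypoxia response element was found at summits of all 4 genes. Of the 16 shControl HIF2α windows of 200 bp, 10 held a core of the hypoxia response element (ACGTG or GCGTG on either strand), which is 62.5% beside 70.8% of the whole list. By gene, these were 3 of 5 at VEGFA, 2 of 3 at TGFA, 1 of 2 at CCND1 and 4 of 6 at MYC. Among the 10 peaks called again in shBMAL1 cells 8 held a core, beside 74.8% of all peaks called again, and among the 6 others 2 did, beside 65.2%. Of the 8 shBMAL1 HIF2α windows 7 held a core, beside 69.5%.

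The other motifs were each found in fewer of these windows. No window of the 16 held the E-box CACGTG, which itself contains ACGTG, beside 6.81% of the list. The AP-1 site (TGACTCA or TGAGTCA) was in 1 of 16 windows, the weaker CCND1 peak, beside 27.5%, and no window held both it and a hypoxia response core, beside 19.9%. The GC box GGGCGG was in 0 of 16 beside 18.4%, and CCAAT in 3 of 16 beside 24.0%. Over whole peaks rather than windows, AP-1 was in 3 of 16 beside 30.2% and CCAAT in 5 of 16 beside 29.2%. Of the 3 shControl BMAL1 windows, 1 held a hypoxia response core, beside 58.2% of that list, and 0 held an E-box, beside 12.9%, or a GC box, beside 61.6%.

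**Figure D5:**
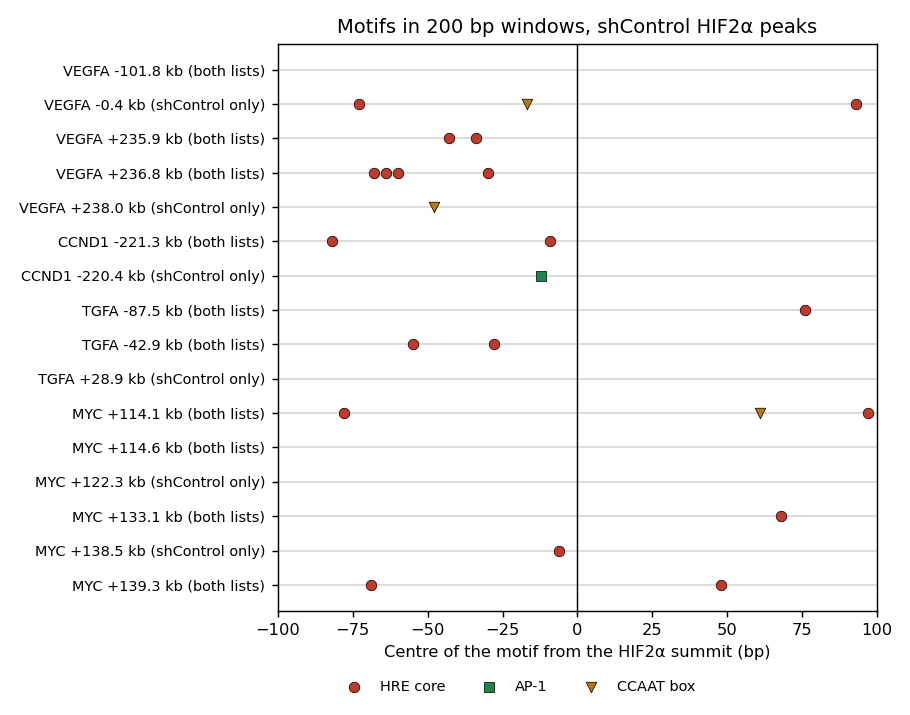
Each line is the 200 bp window of 1 shControl HIF2α peak, named by its gene, its distance from the nearest coding start and whether a shBMAL1 HIF2α peak overlapped it. The x axis is the distance of the centre of a motif from the summit in bp. Cores of the hypoxia response element appear in 10 of the 16 windows, an AP-1 site in 1 and a CCAAT box in 3.

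Partners of the 4 genes in their pathways were read in 4 lists of 12 genes each, by the same window of 300 kb and by being the nearest coding gene of a peak at any distance. Of the 12 genes of VEGF signalling, 1 was the nearest coding gene of a peak in the shControl BMAL1, shControl HIF2α and shBMAL1 HIF2α lists. The shares of all coding genes were 8.2%, 4.89% and 4.35%. In the shBMAL1 BMAL1 list it was 0, beside 3.63%. By the window of 300 kb, 2 had a HIF2α peak in shControl and 3 in shBMAL1 cells, beside 29.5% and 26.3%. For BMAL1 these were 4 and 2, beside 45.1% and 26.3%. NRP1, a coreceptor for VEGF, had a peak 51.4 kb downstream of its nearest start in 3 lists, with fold enrichments of 7.46 and 8.92 for HIF2α in shControl and shBMAL1 cells and 5.47 for BMAL1 in shControl cells. The ligands VEGFB, VEGFC, VEGFD and PGF and the receptors FLT1, KDR and FLT4 were nearest to none.

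Of the 12 genes of EGF ligands and receptors, 1 was nearest to a shControl HIF2α peak and 2 to a shBMAL1 HIF2α peak. The shares of all coding genes were 4.89% and 4.35%. For BMAL1 it was 1 in each arm, beside 8.2% and 3.63%. By the window of 300 kb, 3 had a HIF2α peak in each arm, beside 29.5% and 26.3%. For BMAL1 these were 6 and 4, beside 45.1% and 26.3%. Such small counts do not set ligands apart from receptors. EGFR, which binds TGFα, was nearest to 3 shControl HIF2α peaks, with fold enrichments of 14.9, 6.20 and 5.44 and ranks 50, 570 and 942 of 1204. The strongest, at chr7:55253805-55254318 within EGFR, was also called in shBMAL1 cells, with a fold enrichment of 9.42 and rank 165 of 1089. The other 2 were called there as well, with fold enrichments of 5.40 and 6.38. A further 2 shBMAL1 HIF2α peaks lay 58.3 and 43.6 kb upstream of the nearest EGFR start, with 5.48 and 6.33. The latter lay within the EGFR gene. EGFR also had 1 weaker shControl BMAL1 peak, with a fold enrichment of 4.32 and rank 1357 of 1812. ERBB4, a related receptor, had a peak for both factors in shBMAL1 cells only, within its body and 653 kb from its nearest start. The ligands EGF, AREG, EREG, HBEGF, BTC and EPGN were nearest to no peak of any list. Nor were ERBB2, ERBB3, ADAM17 and ERRFI1.

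The cyclin D list had no HIF2α peak within 300 kb of any of its 12 genes in either arm, beside 29.5% of all coding genes in shControl and 26.3% in shBMAL1 cells. For BMAL1, 3 of the 12 had a peak within 300 kb in each arm, beside 45.1% and 26.3%. The 2 genes of the list nearest to a peak, beside 8.2% of all genes, had a BMAL1 peak at the promoter in shControl cells. CDK4, the kinase partner of cyclin D1, had a fold enrichment of 11.0 and rank 473, and E2F1, a factor held in check by RB1, had 6.44 and rank 1075. Neither was called for BMAL1 in shBMAL1 cells, where 38.7% of all shControl BMAL1 peaks were called again.

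The MYC network list had the most BMAL1 peaks. Of its 12 genes 6 were nearest to a shControl BMAL1 peak, beside 8.2% of all coding genes, and 2 to a shControl HIF2α peak, beside 4.89%. By the window of 300 kb, 10 had a BMAL1 peak in shControl and 7 in shBMAL1 cells, beside 45.1% and 26.3%. For HIF2α these were 6 and 5, beside 29.5% and 26.3%. MXI1, MXD1, MXD3, MXD4 and MNT, which compete with MYC for its partner MAX, each had the BMAL1 peak at the promoter, with fold enrichments of 13.9, 3.05, 5.72, 7.19 and 4.63. Only that of MXI1 was called again for BMAL1 in shBMAL1 cells, with a fold enrichment of 8.54, beside 38.7% of all shControl BMAL1 peaks. The MXD4 promoter also had HIF2α peaks, with fold enrichments of 4.27 in shControl and 4.64 in shBMAL1 cells. MLXIP, a partner of MLX, had a shControl HIF2α peak within its gene body, 2.18 kb upstream of the nearest coding start, with a fold enrichment of 8.40. MLXIPL, a relative of MLXIP, had BMAL1 peaks 12.0 kb upstream in shControl cells and 11.4 kb downstream in shBMAL1 cells.

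Over all 48 pathway genes, HIF2α peaks had 4 as the nearest gene in either arm, beside 4.89% of all coding genes in shControl and 4.35% in shBMAL1 cells. BMAL1 peaks had 10 in shControl cells, beside 8.2%, and 3 after knockdown, beside 3.63%. The totals after knockdown include ERBB4, whose peaks lay beyond 300 kb. Within 300 kb, 11 of the 48 had a HIF2α peak in each arm, beside 29.5% of all coding genes in shControl and 26.3% in shBMAL1 cells. For BMAL1 it was 23 of 48 in shControl cells, beside 45.1%, and 16 of 48 in shBMAL1 cells, beside 26.3%.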

How the data were processed

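CUT&RUN libraries of 786-O cells were aligned by the authors with Bowtie2 2.5.3 to hg19, duplicates were removed, and peaks were called with MACS2 2.2.9.1 (--max-gap 400) on the pooled libraries of each group. Peaks in blacklisted regions were removed with bedtools 2.31.1. The 4 IgG libraries have no list of their own, and whether they served as the control is not given in the sources used here. The deposited lists give fold enrichment as a ratio, −log10 p, −log10 q and a score that is 10 times the −log10 q without its decimals in nearly all rows. The lists hold no read counts, so no interval on a fold was given.

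Summits were set against the starts of protein-coding transcripts in GENCODE 44 (hg19 coordinates), with windows of 300 kb. A promoter was 1000 bp upstream to 100 bp downstream of a start, judged at the midpoint of a peak. Overlap meant at least 1 bp. Motifs were searched on both strands of 200 bp around summits, in GRCh37, by exact letters. Python 3.11.15, numpy 2.4.6, scipy 1.17.1 and matplotlib 3.10.9 were used, and the scripts were tested on simulated data.

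Every peak found by the rule is named, with its nearest coding gene. Of the pathway lists, the genes nearest to a peak are named. The members and lists were chosen with earlier results of these data known. Alternatives changed the window, the strength needed, the list length, the overlap, the nearest-gene set, the ranking and the motif window.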

Additional observations from a re-analysis of the deposited data

How the results depend on the processing

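Of 62 alternatives over 14 results, 47 left a count within 1.5 times the main one, a count of 0 at 0, or a share within the 95% interval of the main share. Those intervals are wide at such small counts, with 0 to 56.1 for 0 of 3 peaks and 3.50 to 36.0 for 2 of 16. A share inside its interval can therefore still have moved far, and for shares the count of 47 says little about stability. With a window of 100 kb the counts near the 4 genes were 4 shControl HIF2α peaks, 2 shBMAL1 HIF2α peaks and 1 shControl BMAL1 peak, and 2 genes, VEGFA and TGFA, kept a shControl HIF2α peak. With 500 kb the shControl BMAL1 count was 5 and the shBMAL1 BMAL1 count 1. Peaks of −log10 p of 20 or more left 8 in the shControl HIF2α list, 7 in the shBMAL1 HIF2α list and 1 in the shControl BMAL1 list. Cutting every list to the strongest 768 peaks left 11 shControl HIF2α, 8 shBMAL1 HIF2α and 1 shControl BMAL1 peak. Of the shControl HIF2α peaks 81.8% then overlapped a shBMAL1 peak. With all annotated genes as candidates, 2 shControl HIF2α peaks, 0 shBMAL1 HIF2α peaks and 1 shControl BMAL1 peak were nearest to 1 of the 4 genes, since noncoding genes such as PVT1 lie closer. In 100 bp windows 5 of the 16 held a hypoxia response core. Ranked by fold, the VEGFA promoter peak was 797. An alternative added after seeing the data left out weaker peaks within 2 kb of a stronger one. It left 11 shControl HIF2α and 8 shBMAL1 HIF2α peaks, and 72.7% of the shControl HIF2α peaks then overlapped a shBMAL1 peak. By the rule of 1.5 times or the 95% interval, it moved none of the results it applies to.

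No paired analysis was possible because each list was called once on pooled libraries, and no replicate was left out for the same reason. A pooled list does not show whether each library held a peak, and without read counts a missing peak cannot be told apart from one too weak to call.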

Other observations

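The 6 HIF2α peaks within PVT1, spanning 25.2 kb, formed the third densest stretch of 30 kb in the shControl HIF2α list. The denser ones lay over ARNT, with 12 peaks, and EPAS1, with 10, the genes of HIF2α and its partner. The next after PVT1, at BHLHE40, held 4. The stretches over ARNT and EPAS1 were not particular to this list. They were also the densest of the shControl BMAL1 list, with 12 and 9 peaks, and of the shBMAL1 HIF2α list, with 10 each. In the shBMAL1 BMAL1 list neither was among the dense stretches, and the densest held 4 peaks, near ZP4.

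Some peaks lay between 300 and 500 kb from the 4 genes. A shBMAL1 HIF2α peak 371 kb downstream of MYC, also within PVT1, had a fold enrichment of 9.51 and rank 347 of 1089, and no other list had one there. The promoter of MYEOV, 394 kb upstream of CCND1, had a BMAL1 peak in both arms, with fold enrichments of 6.02 and rank 1098 of 1812 in shControl cells and 16.1 and rank 291 of 768 in shBMAL1 cells. The median fold enrichment of the whole BMAL1 list also differed, at 7.13 in shControl and 10.5 in shBMAL1 cells. The 2 folds therefore do not measure a change in binding. A shControl HIF2α peak near ZNF318, 386 kb upstream of VEGFA, had a fold enrichment of 10.7 and was not called in shBMAL1 cells.

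The genes with the most alike distances to the nearest summit in the 4 lists (log10 of bp, limited to 300 kb, as a Euclidean distance) were PRKDC and TMSB10 for VEGFA, at 0.356 and 0.401. For TGFA they were B3GNT8 and ARHGEF16, at 0.0453 and 0.0903. For CCND1 they were SH3TC1 and KLF7, at 0.00136 and 0.00158, and for MYC they were GOLPH3L and B3GALT4, at 0.00843 and 0.00894.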
